A study of Homo sapiens with 2 samples.

Results

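The p53 target genes described here are CDKN1A, MDM2, BAX, GADD45A, SESN1, ZMAT3, FAS, BBC3, PHLDA3 and TP53I3, which were taken by symbol from the 32738 genes of the count matrix. They were read in 7550 of 10836 barcodes, namely those with 1 hashtag call that did not exceed 36000 UMIs, 6000 genes or a mitochondrial share of 18%. A UMI (unique molecular identifier) marks 1 captured RNA molecule. All 10 genes passed the minimum of 100 UMIs over the kept cells that was set for a comparison, as did 13489 genes in all, and the totals ran from 125 UMIs for FAS to 33144 for BAX.

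The cells were nonadherent cells of the human induced pluripotent stem cell line IPS11, harvested on day 5 of the endothelial to hematopoietic transition (EHT) culture, in which CD34+ cells give rise to blood cells. Every group was the same line in the same EHT medium, and the groups differed in the plate coating alone, which was none, VCAM1, DLL4, or DLL4 with VCAM1. The cells of 3 wells per coating were combined, tagged with 1 of the hashtags 0252, 0253, 0254 and 0255, and sequenced together as 1 library. The sources do not tie a hashtag to a coating, so that values are given by hashtag without naming the coating, and with 1 pool per coating there are no replicates and no p-values. The kept cells held 142110950 UMIs, and the hashtags held 1571 to 2136 of the cells with a median of 17621 to 18769.5 UMIs.

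p53 is a transcription factor that is kept low by MDM2, which marks it for degradation, and that accumulates when DNA is damaged or when a cell is otherwise stressed. It binds DNA as a tetramer and switches on genes that stop the cell cycle, repair DNA, limit oxidative damage, start apoptosis or shut p53 off again. In blood stem and progenitor cells it is best known for limiting survival after DNA damage and for keeping stem cells out of cycle.

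The DNA sequence that p53 recognizes, the p53 response element, consists of 2 decamers of 10 bases, each with 3 purines, a C, 2 bases that are A or T, a G and 3 pyrimidines. It was searched on hg19 within 3000 bases of the canonical start of a gene as 2 decamers without a spacer, with the C and G of both intact and at most 2 other mismatches. The motif is its own reverse complement, so that a search of 1 strand covers both. Of the 10 genes, 9 had such a window and 5 of them held a match, compared to 4.64% of 19894 protein-coding genes. The matches are shown because they are the letters of the motif found near these genes. Capitals mark the 20 bases of the match and lower case 5 bases on each side, and each is written 5′ to 3′ on the strand of its gene.
CDKN1A: gtcagGAACATGTCCCAACATGTTGagctc
MDM2: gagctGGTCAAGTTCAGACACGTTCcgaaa
BAX: cccccGGGCAGGCCCGGGCTTGTCGcccgc
GADD45A: gtacaGAACATGTCTAAGCATGCTGgggac
ZMAT3: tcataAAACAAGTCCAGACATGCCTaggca
FAS: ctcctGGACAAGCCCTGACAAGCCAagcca

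The CDKN1A match at chr6:36644226-36644245 lay 2265 bases upstream of the canonical start and overlapped an annotated exon of the gene, which begins at 36644237 with an alternative transcript. The MDM2 match (chr12:69202703-69202722), the GADD45A match (chr1:68152458-68152477) and the ZMAT3 match (chr3:178787976-178787995, minus strand) lay in introns, 746, 1574 and 1602 bases after the start. The BAX match (chr19:49458470-49458489) overlapped an annotated exon 338 bases after the start. The match of ZMAT3 had 0 mismatches, that of GADD45A 1 and the other matches 2. The FAS match was found in a promoter of RefSeq, build GRCh38.p14, at chr10:88991309-88991328 on the plus strand, where promoters cover 250 bases before to 50 after a start. In the RefSeq promoters, 8 of the 10 genes were listed with 16 promoters, of which 3 (of FAS and MDM2) held a match, compared to 0.285% of all 35116 promoters. The MDM2 promoter match has the same letters and flanks as the intronic match above, and lies at -94 bases from a RefSeq start. It is therefore not a further site. A match is a description of the letters, and no binding was measured. SESN1, BBC3, PHLDA3 and TP53I3 had no match of these letters in the windows searched.

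Cells were sorted into gates by genes that mark blood and stromal lineages, counted per 10000 UMIs of the cell except for CD34 and GATA2. The C1Q gate took cells with at least 5 UMIs of the complement genes C1QA, C1QB and C1QC, which macrophages express. The ELANE gate took those with at least 5 of neutrophil elastase, the PF4/PPBP gate those with at least 5 of the platelet factors PF4 and PPBP, the globin gate those with at least 20 of the globins, and the collagen gate those with at least 5 of COL1A1, COL1A2 and COL3A1. Of the cells outside of these gates, those with at least 1 UMI of both CD34 and GATA2, not scaled by depth, formed the CD34/GATA2 gate. Their median depth was 20297 UMIs, compared to 17837 in cells without a gate. The CD34/GATA2 gate held 2585 cells, the C1Q gate 693, the globin gate 272 and the collagen gate 91. The ELANE gate held 85 and the PF4/PPBP gate 15, and 107 cells fell into several gates and 3702 into none. Further markers were higher than in all other cells for each lineage gate, with 5 of 5 in the C1Q gate (CD14 and MRC1 among them), 5 of 5 in ELANE, 4 of 4 in PF4/PPBP, 3 of 3 in globin and 3 of 3 in collagen. In the CD34/GATA2 gate it was 3 of 5. The gates are called by their genes and not as cell types.

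A gene was counted as higher or lower in a gate if its summed UMIs per 1000000 (CPM) differed at least 1.5-fold from those of all other kept cells. The intervals are exact 95% intervals and cover counting error only. Free RNA in droplets also gives UMIs, and none of these genes has a cell type here that should lack it. The plot of levels by gate shows all 10 genes.

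**Figure D1:**
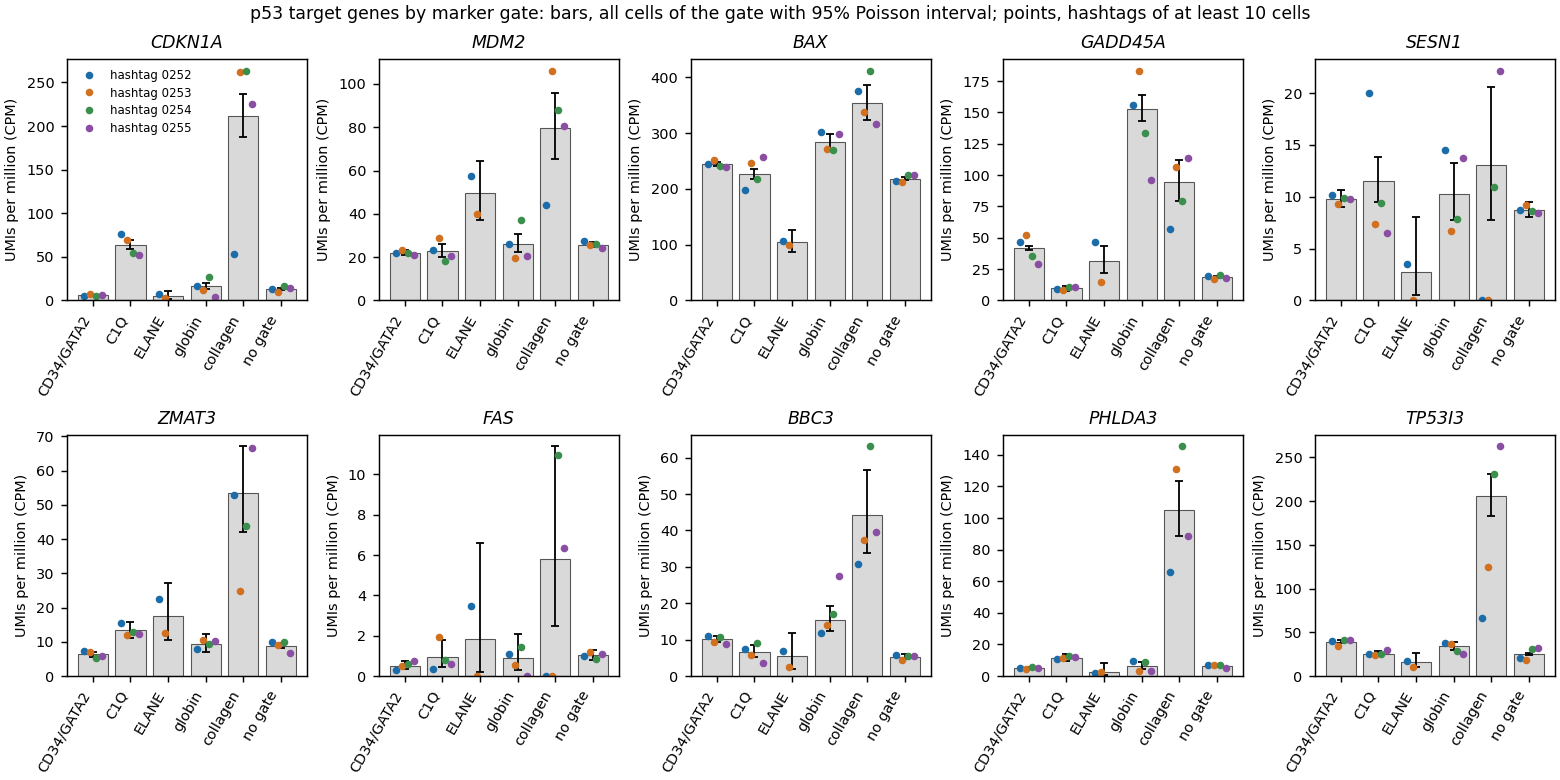
Levels of the 10 genes in CPM in 5 gates and in cells without a gate (the PF4/PPBP gate of 15 cells is not drawn). Bars give all cells of the gate with the exact 95% Poisson interval, and points give hashtags with at least 10 cells. Of the bars drawn, collagen is the highest for all genes but GADD45A, for which it is globin at 153 CPM, and the CDKN1A point of hashtag 0252 in collagen (52.9 CPM) lies far below the other 3.

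The collagen gate stood apart, since 9 of the 10 genes were higher there and 0 lower, while 21.4% of all genes tested were higher in this gate and 31.2% lower. The median ratio of the 10 genes was 5.95, compared to 0.88 over all genes. These cells express fibrillar collagens, which stromal cells rather than blood cells make. CDKN1A encodes p21, which inhibits cyclin-dependent kinases and halts the cell cycle. In collagen cells it had 52.9, 262, 264 and 225 CPM in hashtags 0252 to 0255, so that the first hashtag was low and the other 3 lay close together. Pooled, this was 211 CPM (interval 188 to 237) against 13.9 in all other cells, a 15.1-fold difference, and 35.8-fold against the median of the other 5 gates.

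PHLDA3 blocks AKT at the membrane and thereby withdraws a survival signal. Its levels in the collagen gate were 66.1, 131, 146 and 88.7 CPM by hashtag, and all 4 exceeded the 6.36 CPM of other cells (16.5-fold, interval 13.7 to 19.7). TP53I3, a quinone oxidoreductase tied to oxidative stress, had 66.1, 125, 231 and 263 CPM, again lowest in 0252, and 206 CPM in all (6.65-fold). A single cell with 64 UMIs held 22.5% of the TP53I3 UMIs of this gate, and without it the ratio was 5.25. ZMAT3, a zinc finger protein that binds RNA and acts in splicing, had 53.5 CPM (6.34-fold) with 25.0 to 66.5 over hashtags.

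The 3 genes of cell death were also higher in the collagen gate. BBC3 encodes PUMA, a BH3-only protein that frees BAX and BAK to open the mitochondrion, and it had 44.1 CPM (5.57-fold, 30.8 to 63.2 over hashtags). BAX itself, the pore-forming member of the BCL2 family, had 354 CPM and a ratio of 1.52, just past the fold, and just short of it without the cell with the most BAX UMIs or against the median of the other 5 gates (1.45). All hashtags (317 to 412 CPM) still lay above the 232 CPM of other cells. The death receptor FAS rested on 8 UMIs in 8 cells (6.96-fold, interval 2.93 to 14.2) and had 0 UMIs in hashtags 0252 and 0253. MDM2, the ubiquitin ligase that limits p53, had 79.5 CPM (3.25-fold) with 44.1 to 106 over hashtags, and GADD45A, a stress sensor that binds PCNA and p38 activators, had 94.7 CPM (2.62-fold). SESN1, a sestrin that restrains mTORC1, was the gene within the fold, at 13.02 CPM and a ratio of 1.37 (interval 0.81 to 2.17).

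The collagen cells were few and unevenly spread, with 11, 11, 17 and 52 cells in hashtags 0252 to 0255. Their median depth was 14530 UMIs and their median mitochondrial share 9.93%, the latter below the 13.1% of all kept cells. The 40 further p53 targets went the same way, with 22 of 37 tested higher, 1 lower and a median ratio of 2.02. GDF15, a secreted stress cytokine, was 103-fold higher (65.1 against 0.63 CPM), PLK2, a polo-like kinase, 16.7-fold, PERP, a membrane protein of desmosomes, 11.3-fold, and DRAM1, a lysosomal protein of autophagy, 5.65-fold. TNFRSF10A, a TRAIL receptor, was the gene that was lower (0.64). Of the 12 regulators of p53, 2 were higher and 5 lower. CDKN2A, which encodes p16 and the MDM2 inhibitor p14ARF, had 79.5 against 3.205 CPM (24.8-fold), and the p53 inhibitor MDM4 had a ratio of 0.55. All 14 genes of mitosis and all 13 of S phase were lower, with median ratios of 0.49 and 0.43. The part of the cell division genes and of depth in the p53 targets of these cells was not tested.

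In the C1Q gate 3 of the 10 genes were higher and 1 lower, next to 15.9% of all genes higher and 24.4% lower. CDKN1A had 75.8, 68.9, 54.2 and 51.7 CPM in hashtags 0252 to 0255, which all lay above the 12.4 CPM of other cells. The pooled level of 64.0 CPM was 5.18-fold higher (interval 4.72 to 5.69), and 97.9% of genes had a smaller ratio. Against the median of the other 5 gates, CDKN1A was 10.9-fold higher, GADD45A had a ratio of 0.10 and ZMAT3 was within the fold (1.43). ZMAT3 (13.3 CPM, 1.56-fold) and PHLDA3 (11.6 CPM, 1.65-fold) were just past the fold. GADD45A was lower, with 9.12, 8.56, 11.0 and 10.6 CPM against 38.65 in other cells (ratio 0.25, interval 0.20 to 0.31), and no hashtag came near the other cells. BAX (0.97), MDM2 (0.91), BBC3 (0.80) and TP53I3 (0.77) stayed within the fold.

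Of 37 further p53 targets, 8 were higher and 13 lower in the C1Q gate, with a median ratio of 0.84 beside 0.91 over all genes, and the shares of all genes are those given above. BTG2, an antiproliferative cofactor, had 115 CPM (4.21-fold), the interferon-induced TRIM22 3.83-fold, TIGAR, which limits glycolysis, 2.61-fold and SUSD6 2.24-fold. CD82, a tetraspanin (0.14), CMBL, a hydrolase (0.19), LIF, a cytokine (0.20), and EDA2R, a receptor of the TNF family (0.40), were the lowest of those with a UMI in the gate. Beside them, 12 of 13 S phase genes were lower (median 0.57). Of 14 mitosis genes, 0 were higher and 0 lower (median 0.86, beside 0.91 over all genes). Immediate early genes respond within minutes to a stimulus or to handling of cells, and 6 of 8 were higher (FOS 3.71-fold, JUN 3.43-fold). The part of these lists in the CDKN1A level was not tested.

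The CD34/GATA2 gate, the largest, had 0 genes higher and 4 lower (6.38% and 11.9% of all genes). CDKN1A was at 5.34, 7.12, 5.13 and 6.22 CPM in the 4 hashtags, a narrow range below the 22.1 CPM of other cells (ratio 0.27, interval 0.24 to 0.30). FAS (0.46, on 28 UMIs), PHLDA3 (0.60) and ZMAT3 (0.61) were the other genes past the fold, of which PHLDA3 was within it against the median of the other 5 gates (0.78). BBC3 (10.1 CPM, 1.41), TP53I3 (39.1 CPM, 1.36) and GADD45A (42.0 CPM, 1.26) were above the other cells but within the fold. Further targets were 3 higher and 6 lower of 37. LIF (2.84, on 1.65 CPM), CD82 (2.26) and CMBL (1.62) were higher, and GDF15 (0.23), BTG2 (0.31), TRIM22 (0.32) and TIGAR (0.34) lower. Thinned to 10000 UMIs, 3.77% of CD34/GATA2 cells (Clopper-Pearson interval 3.06 to 4.58) had a CDKN1A UMI, compared to 29.5% (25.7 to 33.6) in the C1Q gate and 68.8% (55.9 to 79.8) in the collagen gate. Unthinned, these shares were 5.61, 38.5 and 72.5% at median depths of 20297, 12712 and 14530 UMIs.

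GADD45A had its highest levels in the globin and PF4/PPBP gates. In the globin gate they were 156, 183, 134 and 95.9 CPM by hashtag, and even the lowest of these was higher than the 32.0 CPM of other cells (153 CPM pooled, 4.79-fold, interval 4.44 to 5.15). Over the thinned globin cells GADD45A had a negative r with 3 of 3 further globin gate markers (median -0.21) and a positive r with 4 of 4 further PF4/PPBP markers (median 0.27). BBC3 was the other gene past the fold (15.5 CPM, 1.94-fold, with 11.7 to 27.4 over hashtags). The other 8 genes had ratios of 0.91 to 1.23, and 8.58% of all genes were higher in this gate and 24.6% lower. Further p53 targets were 3 higher (BTG2 1.96-fold, TP53INP1 1.77-fold and GDF15 1.61-fold) and 9 lower of 37, with TRIM22, TIGAR and PERP (each 0.12) and LIF (0.18) the lowest, while HIPK2, a kinase of p53, had 218 CPM (3.16-fold).

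In the PF4/PPBP gate GADD45A had 179 CPM in 15 cells (4.93-fold), and 3 of the 10 genes were higher and 2 lower (17.9% and 38.1% of all genes). Of these, BBC3 rested on 8 UMIs, and FAS (higher), CDKN1A and PHLDA3 (lower) on 1 UMI each, with intervals that include a ratio of 1. Most cells with enough PF4 or PPBP also passed another gate, and 4 of 4 further platelet lineage markers were higher in the globin gate too (median 7.85-fold). If gates were allowed to overlap, an alternative chosen after the data were seen, the PF4/PPBP gate held 108 cells. GADD45A then stood at 263 CPM (7.89-fold, interval 7.21 to 8.63), BBC3 at 2.70-fold, ZMAT3 at 1.77-fold and SESN1 at 1.69-fold, so that 4 genes were higher and 1 (PHLDA3, 0.46, on 7 UMIs) lower, next to 12.9% and 37.9% of all genes.

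The ELANE gate of 85 cells had 3 genes higher and 6 lower (18.5% and 27.5% of all genes), and hashtags 0254 and 0255 held only 4 and 3 of its cells. MDM2 was at 57.4 and 39.9 CPM in hashtags 0252 and 0253, both above the 24.8 CPM of other cells (1.99-fold pooled, interval 1.495 to 2.61). BAX was at 106 and 99.7 CPM, both less than the 234 CPM of other cells (0.45, interval 0.37 to 0.54), the lowest BAX level of the 6 gates. ZMAT3 was also higher (1.97), on 19 UMIs, and FAS on 2. CDKN1A, SESN1 and PHLDA3 were lower on 3 to 5 UMIs each, with TP53I3 (0.50) and BBC3 (0.66, interval 0.24 to 1.45). Of the further p53 targets 6 were higher, led by the metalloreductase STEAP3 (3.70), DRAM1 (2.44) and TP53I11 (2.07), and 12 lower, with GDF15 and LIF at 0 UMIs and BTG2 at 0.22.

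In the 3702 cells without a gate 0 genes were higher and 3 lower (4.44% and 9.56% of all genes), namely GADD45A (18.6 CPM, 0.35), BBC3 (5.34 CPM, 0.49) and TP53I3 (25.1 CPM, 0.63).

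Over the 4 gates with more than 90 cells, the genes differed in how widely their levels ran. CDKN1A had a 35.8-fold range from the collagen to the CD34/GATA2 gate, PHLDA3 20.2-fold and GADD45A 15.7-fold, but BAX 1.56-fold and SESN1 1.33-fold. For CDKN1A the order was collagen, C1Q, globin and CD34/GATA2, and neighbors did not overlap in their intervals when hashtags were pooled. In hashtag 0252 C1Q (75.8 CPM) lay above collagen (52.9), and in 0255 CD34/GATA2 (6.22) above globin (3.43). For GADD45A the pooled order was globin, collagen, CD34/GATA2 and C1Q, also without overlap, but collagen (114 CPM) lay above globin (95.9) in 0255. SESN1 intervals overlapped between all neighbors in these gates. Over all 6 gates the ranges were 68.3-fold for CDKN1A, 38.2-fold for PHLDA3, 18.4-fold for GADD45A, 4.74-fold for SESN1 and 3.36-fold for BAX. SESN1 and BAX were lowest in the ELANE gate, on 3 and 115 UMIs. The lowest CDKN1A level was that of the PF4/PPBP gate, on 1 UMI.

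The next comparison asked whether the genes vary with the mitochondrial share of a cell, which rises when cytoplasmic RNA is lost and is used as a limit of cell quality. Levels were taken as CPM of non-mitochondrial UMIs in bins of the share, within each gate, and the bin of 16 to 18% was set against that of 10 to 12%. Median depth differed as well, at 17332 UMIs in the upper and 23066.5 in the lower bin of the CD34/GATA2 gate. In this gate 5 of the 10 genes were higher in the upper bin and 0 lower, while 12.8% of all genes were higher and 15.5% lower.

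GADD45A in CD34/GATA2 cells went from 31.1 CPM at 10 to 12% over 43.7 and 57.7 to 74.3 at 16 to 18% (2.38-fold, interval 2.04 to 2.79). TP53I3 went from 30.7 over 41.1 and 54.2 to 61.6 CPM (2.01-fold, interval 1.70 to 2.36), and both were higher at each of these steps. Under 10% they had 36.7 and 38.1 CPM, above the 10 to 12% bin. BBC3 stayed at 8.94 and 8.91 CPM up to 14% and then reached 13.3 and 21.2 CPM (2.37-fold, interval 1.76 to 3.19, but 1.28 when the upper bin was 14 to 15%). CDKN1A was uneven, with 8.50, 4.51, 6.06 and 13.5 CPM (1.58-fold, interval 1.13 to 2.22), and its ratio was 0.52 when the upper bin was 14 to 15%. FAS was past the fold on few UMIs. BAX (1.02), ZMAT3 (0.96) and MDM2 (0.85) did not move past the fold.

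**Figure D2:**
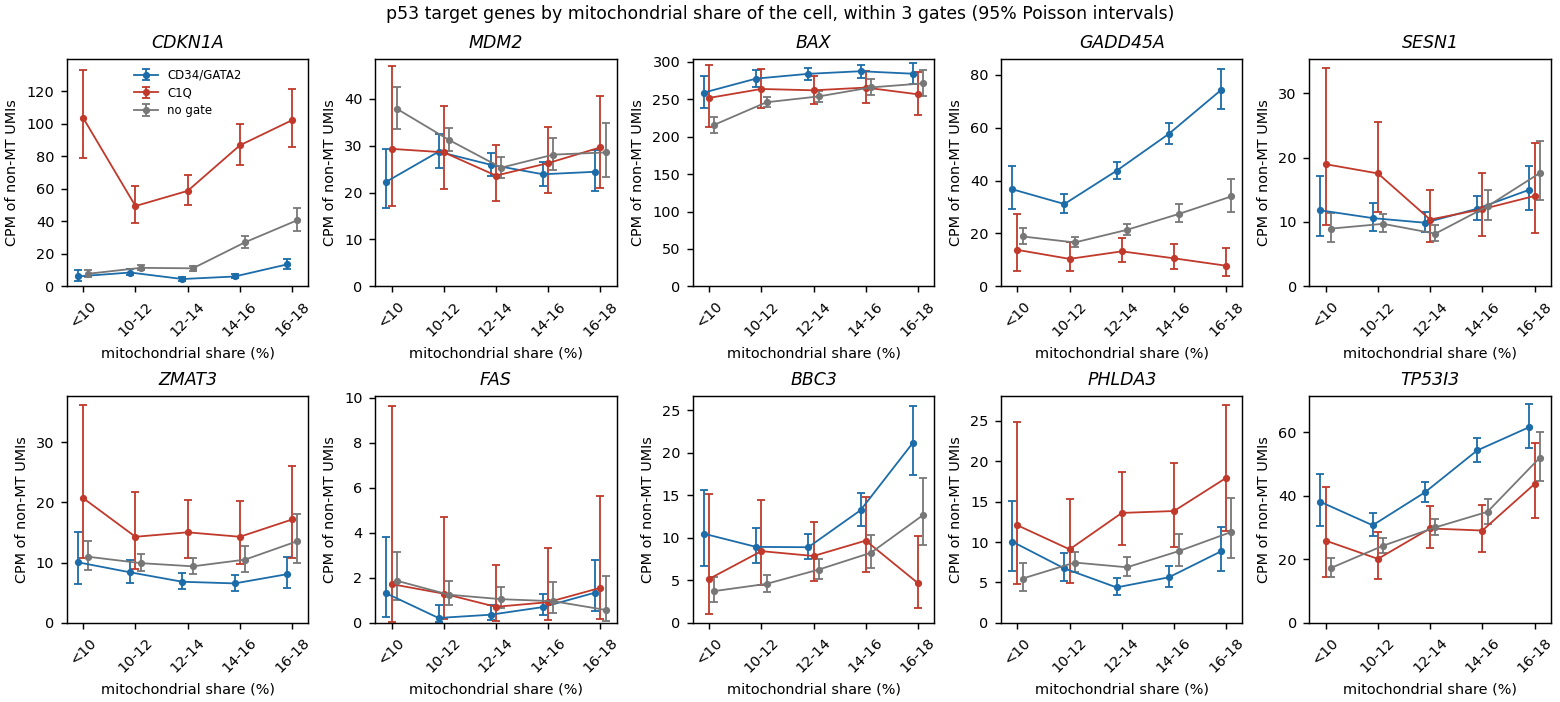
Levels in CPM of non-mitochondrial UMIs against the mitochondrial share of the cell, in the CD34/GATA2 gate, the C1Q gate and cells without a gate, with exact 95% Poisson intervals. GADD45A climbs from 31.1 to 74.3 CPM in CD34/GATA2 cells between 10 and 18% but not in C1Q cells, where it has 10.4 and 7.80 CPM, and the 16 to 18% over 10 to 12% ratio of BAX is 1.02, 0.97 and 1.10 in the 3 sets.

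The cells without a gate gave a similar list, with 6 of the 10 genes higher in the upper bin and FAS lower on few UMIs (15.8% and 14.7% of all genes). CDKN1A was at 11.4, 11.1, 27.1 and 40.7 CPM from 10 to 18%, a 3.57-fold difference (interval 2.87 to 4.44) that arose above 14%. BBC3 was 2.76-fold, TP53I3 2.14-fold, GADD45A 2.05-fold, SESN1 1.81-fold and PHLDA3 1.51-fold higher, and MDM2 had 0.91 and BAX 1.10. With an upper bin of 14 to 15% instead, a different comparison, 1 gene was past the fold, CDKN1A at 2.24, while BBC3 had 1.44 and TP53I3 1.28.

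In the C1Q gate 3 genes were higher and 1 lower in the upper bin (13.4% and 21% of all genes). CDKN1A went from 49.4 over 58.7 and 86.7 to 102 CPM (2.07-fold, interval 1.55 to 2.78), but had 103 CPM in the 59 cells under 10% as well, so that its lowest level lay at 10 to 12%. TP53I3 was 2.17-fold (interval 1.37 to 3.48) and PHLDA3 1.97-fold higher (interval 0.97 to 4.15). With the bin of 14 to 15%, CDKN1A (1.43) and TP53I3 (1.33) were within the fold. GADD45A had 10.4, 13.2, 10.6 and 7.80 CPM (ratio 0.75, interval 0.30 to 1.76), an interval that does not overlap with that of the CD34/GATA2 gate. The difference between the gates was not tested. BBC3 (0.55, interval 0.17 to 1.56) was lower, and turned to 1.34 with the bin of 14 to 15%. In the globin gate, with 42 and 40 cells in the bins, 7 genes were past the fold and 0 lower (21.1% and 26.5% of all genes), FAS among them with 0 UMIs in the lower bin. CDKN1A (2.30), TP53I3 (2.20), ZMAT3 (2.15) and SESN1 (2.09) were the other genes past a ratio of 2, the last 2 with intervals that include 1.

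The limits of the cell filter can be judged by the cells on either side. Cells with 16 to 18% mitochondrial UMIs (815) and those left out with more than 18% (541) had 34.7 and 41.3 CPM of CDKN1A, 70.4 and 74.7 of GADD45A and 56.8 and 58.1 of TP53I3, on non-mitochondrial UMIs. These groups also differed in gates. The collagen gate made up 0.74 and 2.59% of them, the CD34/GATA2 gate 42.3 and 19.2%, and cells without a gate 35.0 and 59.5%. The part of the gates in these levels was not tested. The 420 kept cells with 30000 to 36000 UMIs had 12.2 CPM of CDKN1A, and the 396 cells left out for more than 36000 UMIs or 6000 genes had 31.6, of which 7.07% fell into the collagen gate compared to 0.48% of the former.

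Over all kept cells 2 of the 10 differed at least 1.5-fold between the highest and the lowest hashtag, compared to 17% of all genes. The ratios ran from 1.02 for BAX to 1.65 for GADD45A, next to a median of 1.17 over all genes. GADD45A had 41.7, 43.4, 32.0 and 26.3 CPM in hashtags 0252 to 0255, high in the first pair and low in the second (1.65-fold). TP53I3 ran the other way, with 30.0, 26.1, 37.2 and 39.9 CPM (1.53-fold). CDKN1A had 14.7, 14.04, 17.3 and 18.2 CPM, with the same pair higher. MDM2 (24.2 to 25.6 CPM), BAX (231 to 236) and SESN1 (9.19 to 10.3) differed little. When each gate was given the same weight in every hashtag, 0 genes reached the fold, next to 15.4% of all genes, with GADD45A at 1.45-fold and TP53I3 at 1.40-fold. CDKN1A then had 14.9, 15.5, 17.04 and 15.2 CPM, so that hashtag 0255 no longer lay above 0253.

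**Figure D3:**
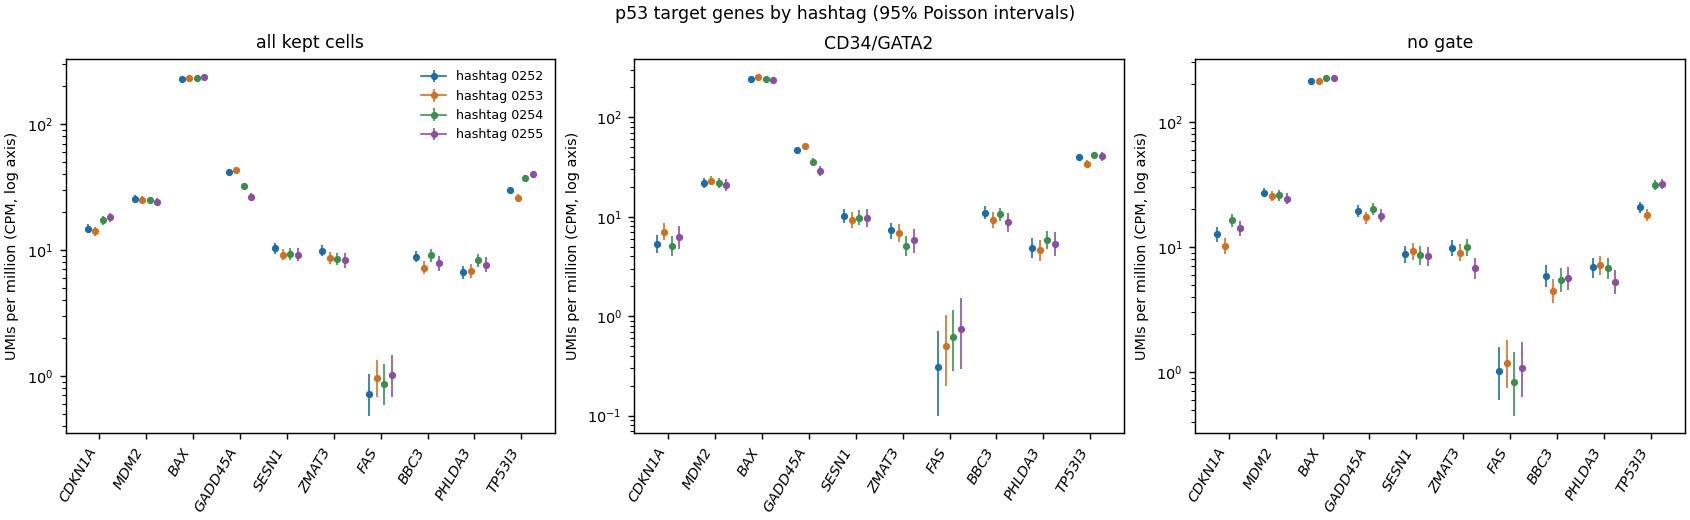
Levels of the 10 genes in CPM (log axis) in the 4 hashtags, for all kept cells, the CD34/GATA2 gate and the cells without a gate, with exact 95% Poisson intervals. In CD34/GATA2 cells GADD45A runs from 51.9 CPM in hashtag 0253 to 28.8 in 0255.

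Within the CD34/GATA2 gate GADD45A kept this order, at 46.9, 51.9, 35.6 and 28.8 CPM (1.80-fold), and FAS was past the fold on few UMIs (22.9% of all genes were). TP53I3 differed little there, at 39.8, 34.4, 41.5 and 40.8 CPM (1.21-fold, beside a median of 1.22 over all genes). In cells without a gate GADD45A was level (17.2 to 20.1 CPM), and TP53I3 (20.8, 18.01, 31.4 and 32.0 CPM, 1.78-fold) and CDKN1A (12.6, 10.2, 16.3 and 14.1 CPM, 1.59-fold) reached the fold, next to 25% of all genes. In the globin cells, at 95.9 to 183 CPM, GADD45A had the same order of hashtags as in CD34/GATA2 cells. In C1Q cells it was higher in the second pair (8.56 to 11.0 CPM over hashtags), with intervals that overlap. In collagen cells it was highest in 0255 (114 CPM) and lowest in 0252 (57.3 CPM).

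Whether the genes moved together was asked over the cells of a gate, after each cell was thinned to 10000 UMIs so that depth was the same. These Pearson correlations describe cells of 1 library, and the counts were sparse, with a mean of 0.0039 (FAS) to 2.44 (BAX) UMIs per thinned CD34/GATA2 cell. Over 2549 CD34/GATA2 cells, 42 of 45 pairs were above 0 with a median r of 0.057. Pairs of other genes were not counted, here or in the sets below. The counts of pairs above 0 thus have no background to be set against. CDKN1A with PHLDA3 (r = 0.41) and with MDM2 (0.27) were the highest pairs. MDM2 with PHLDA3 (0.21) and FAS with PHLDA3 (0.20) followed, the latter on only 10 thinned FAS UMIs. All 9 pairs of CDKN1A were above 0. The variance of the summed count was 1.38 times the sum of the variances of the genes, which would be 1 for genes that vary independently, and 1.29 to 1.60 in single hashtags. It was not taken for other sets of genes. The median r by hashtag was 0.058, 0.013, 0.054 and 0.078 in 0252 to 0255. SESN1 was the most apart, with an r of 0.050 with the sum of the other 9, to which BAX gave the most UMIs.

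**Figure D4:**
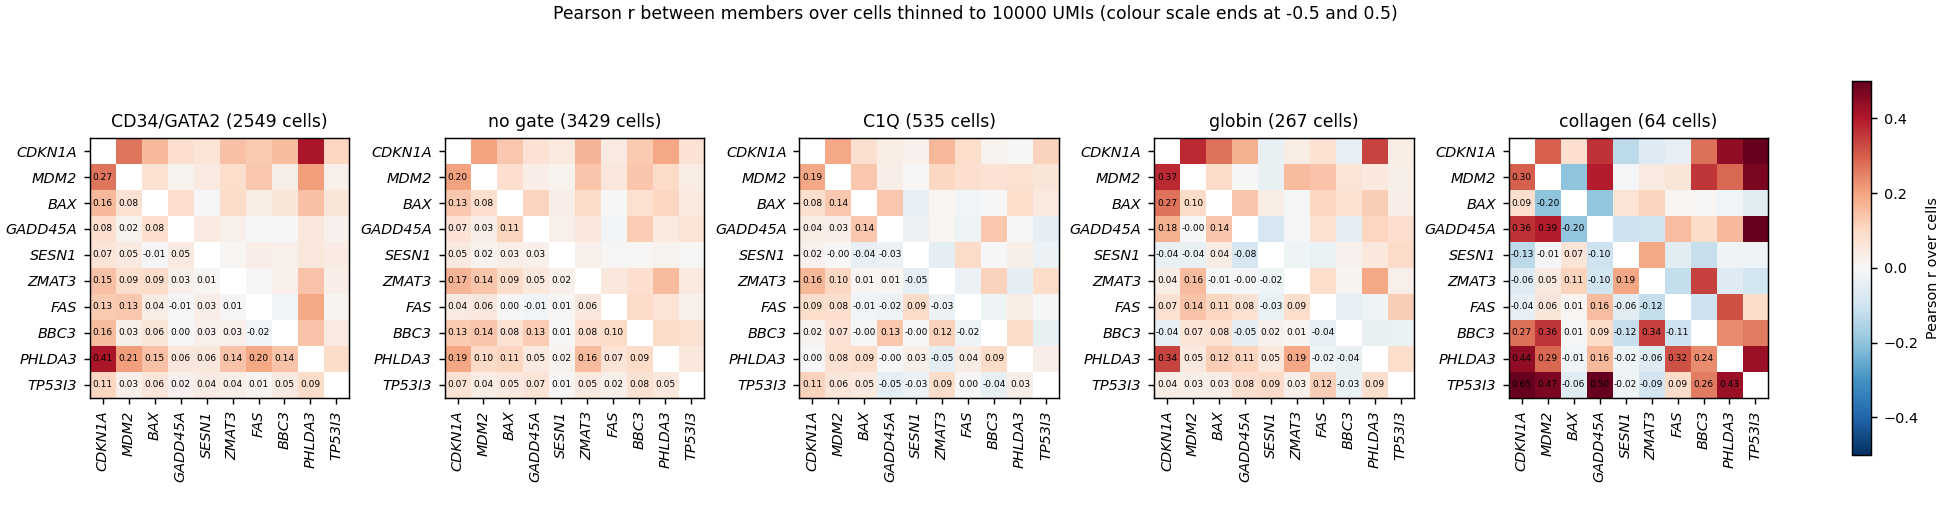
Pearson r between pairs of the 10 genes over cells thinned to 10000 UMIs, in 5 sets of cells. Red is above 0 and blue below, and r is printed below the diagonal. CDKN1A with PHLDA3 is the reddest pair in the CD34/GATA2 gate (0.41) but is near 0 in the C1Q gate, and CDKN1A with TP53I3 (0.65) in the 64 collagen cells.

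The cells without a gate (3429) had 44 of 45 pairs above 0 and a variance ratio of 1.44, with CDKN1A and MDM2 the highest pair (r = 0.20). In 535 C1Q cells 30 of 45 pairs were above 0, the highest being CDKN1A with MDM2 (0.19), and CDKN1A with PHLDA3 had 0.0029 although both genes were higher in this gate. In 267 globin cells CDKN1A went with MDM2 (0.37), PHLDA3 (0.34) and BAX (0.27), and 31 of 45 pairs were above 0. These r rested on 42 thinned UMIs of CDKN1A and 15 of PHLDA3. Before thinning, single globin cells held 13.3% of the CDKN1A, 11.0% of the MDM2 and 13.5% of the PHLDA3 UMIs. The 64 collagen cells with enough UMIs, added after the data were seen, had the highest variance ratio (2.22), with CDKN1A and TP53I3 at 0.65, GADD45A and TP53I3 at 0.50 and MDM2 and TP53I3 at 0.47, but only 27 of 45 pairs above 0 and SESN1 (r = -0.056 with the other 9) and BAX (-0.040) apart. In these cells r with depth was 0.34 for the summed count, even after thinning, and the cell with 64 TP53I3 UMIs was among them. PVRL4, SEMA4F, CAPN10-AS1, CTD-2366F13.1 and RFESD all had the same r with TP53I3 there (0.79). The r with TP53I3 may thus rest on 1 cell, and it was not computed without that cell.

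The summed count weighs each gene by its UMIs. BAX had a mean of 2.44 of the 3.91 summed UMIs per thinned CD34/GATA2 cell. In globin cells BAX had 2.75 and GADD45A 1.61 of 5.50. An r with the sum can thus follow these genes, and no sum with equal weights was taken. Of 13479 other genes, the one with the highest r with the summed genes was RPS27L, a ribosomal protein paralog and a p53 target. This held in the CD34/GATA2, C1Q and globin gates and in cells without a gate. Its r was 0.32 in CD34/GATA2, 0.27 in C1Q, 0.46 in globin and 0.40 in cells without a gate, and 95% of all genes were below 0.047, 0.074, 0.12 and 0.041. In CD34/GATA2 it was followed by NEAT1 (0.26), a nuclear long noncoding RNA, RPS19 (0.23), a ribosomal protein, ACTA2 (0.22), smooth muscle actin, and FDXR (0.21), the mitochondrial ferredoxin reductase. In cells without a gate FDXR was second (0.27) and CD70 the fifth (0.20), and FDXR was the highest in the collagen cells (0.72). In C1Q cells PLXNA2, ITGA1, TRIAP1 and CSF2RB followed RPS27L (0.25 to 0.22), and in globin cells NEAT1, GPX1, RPS19 and SH3BGRL3 (0.40 to 0.35).

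The genes most like CDKN1A alone in the CD34/GATA2 gate were PHLDA3 (0.41), RPS27L (0.33), MDM2 (0.27), ACTA2 (0.26) and PVRL4 (0.25), of which ACTA2 is also among the further markers of the collagen gate. All 5 further markers of the ELANE gate also had r above 0 with CDKN1A in the CD34/GATA2 gate (median 0.10) and with MDM2 (median 0.074). The part of ACTA2 and of the ELANE gate markers in the pairs of CDKN1A was not tested. GADD45A had other neighbors, singled out after their values were seen. In CD34/GATA2 cells they were GPX1 (0.35), CMTM5 (0.33), PRKAR2B (0.33), ANXA3 (0.33) and the platelet glycoprotein GP9 (0.32), and in globin cells GPX1 (0.46), PLEK (0.42), MYLK (0.41), GSN (0.39) and MMRN1 (0.38). Of the 9 other p53 genes the highest r with GADD45A in CD34/GATA2 was 0.084. Of the further p53 targets, 32 of 37 had r above 0 with CDKN1A in CD34/GATA2 cells (median 0.057) and 19 of 37 with GADD45A (median 0.00051), while in C1Q cells it was 24 and 23 of 37. These differences were not tested. All 14 genes of mitosis had a negative r with CDKN1A in CD34/GATA2, C1Q, globin and collagen cells and in those without a gate, with medians from -0.038 in CD34/GATA2 to -0.21 in collagen cells. With MDM2, 9 of 14 were above 0 in CD34/GATA2 cells and 0 of 14 in globin cells (median -0.060). Of 13 S phase genes, 8 had r above 0 with CDKN1A in CD34/GATA2 cells (median 0.0032). It was 1 of 13 in C1Q cells, 0 in globin cells and 3 in cells without a gate. Over all genes the median r with CDKN1A was -0.0035 in CD34/GATA2, -0.011 in C1Q and -0.019 in globin cells. It was -0.0063 in cells without a gate. In CD34/GATA2 cells the median over all genes was -0.0069 with GADD45A and 0.0016 with MDM2. The share of all genes with r above 0 was not counted.

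The CDKN1A UMIs of the CD34/GATA2 gate were concentrated in few cells. Only 32 of 2549 thinned cells (1.26%, interval 0.86 to 1.77) had 2 or more, and they held 58.2% of the thinned CDKN1A UMIs. The share was 1.34, 1.85, 0.85 and 0.89% in hashtags 0252 to 0255, with intervals that overlap. In the C1Q gate it was 11.96% (64 cells), in the globin gate 3.75%, in cells without a gate 2.62% and in the collagen gate 46.9% (30 of 64).

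The other 9 genes were then compared between cells with 2 or more CDKN1A UMIs and cells with none, a comparison added after the data were seen. In the CD34/GATA2 gate all 9 had a ratio of at least 1.5, as did 17.2% of all genes. PHLDA3 was 26.8-fold higher (interval 16.9 to 41.3), ZMAT3 8.21-fold, MDM2 6.92-fold, BBC3 5.57-fold, SESN1 3.04-fold, TP53I3 2.26-fold, GADD45A 2.17-fold and BAX 1.97-fold, and FAS rested on 2 UMIs. The 32 cells were as deep as the others (median 21512 against 20345 UMIs) and had a similar mitochondrial share (13.4 against 13.7%). Among the further p53 targets EDA2R (18.04-fold, on 8 UMIs), SESN2 (7.72-fold) and FDXR (5.90-fold) were high in them, with a median ratio of 2.04 over 37 genes. PMAIP1 (0.50, on 3 UMIs), APAF1 (0.82), TP53I11 (0.86) and PTP4A1 (0.87) were below 1. Mitosis genes were lower (median 0.60), while the 13 S phase genes had a median of 0.98. The median ratio over all genes was 0.91.

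**Figure D5:**
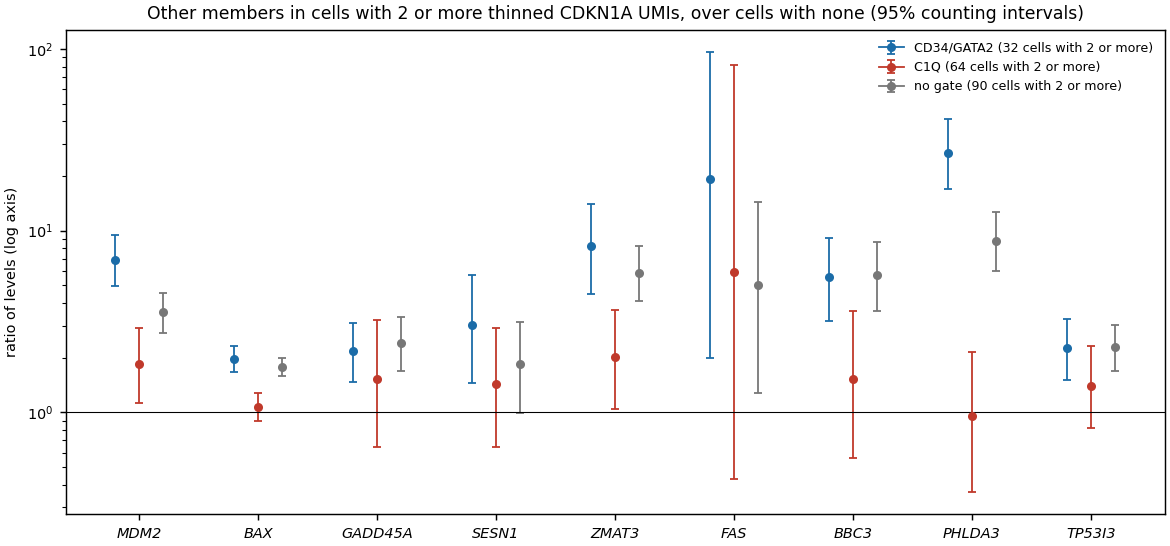
Ratio of the level of each other gene in cells with 2 or more thinned CDKN1A UMIs to its level in cells with none (log axis), with 95% intervals for counting error. In the CD34/GATA2 gate and in cells without a gate all points lie above 1, with PHLDA3 at 26.8 and 8.81, while in the C1Q gate PHLDA3 lies at 0.96.

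Split by CDKN1A, the 90 cells without a gate gave a list like that of the CD34/GATA2 gate. PHLDA3 was 8.81-fold, ZMAT3 5.85-fold, BBC3 5.69-fold and MDM2 3.55-fold higher. All 9 genes were again at 1.5 or more (12.3% of all genes). In the 64 C1Q cells 5 of the 9 genes reached 1.5 (12.8% of all genes). ZMAT3 (2.01) and MDM2 (1.84) did so on lower ratios than in the CD34/GATA2 gate and in cells without a gate. GADD45A (1.51, on 9 UMIs), BBC3 (1.53, on 7) and FAS (5.89, on 2) had intervals that include 1. BAX was at 1.07 and PHLDA3 at 0.96 (interval 0.36 to 2.15). The PHLDA3 intervals of the C1Q and CD34/GATA2 gates did not overlap. Further p53 targets had a median ratio of 1.10 in the C1Q cells, compared to 2.04 in CD34/GATA2 and 1.40 in cells without a gate. Mitosis genes had 0.54 and S phase genes 0.72 in the C1Q cells, beside 0.93 over all genes. In cells without a gate these medians were 0.59, 0.83 and 0.92. Without a gate, the median mitochondrial share was 13.5% in cells with 2 or more CDKN1A UMIs and 12.5% in those with none. In the C1Q gate it was 14.4 and 13.6%. The part of this share in the ratios was not tested.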

How the data were processed

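Single-cell 3′ RNA-seq of 1 pooled library and the hashtag library of the same cells was used. The deposited values are UMI counts per gene and barcode, which the authors made with Cell Ranger 6.0.1 on hg19 (per the labels and the study's methods), together with the authors' hashtag call per barcode. Which hashtag marks which coating is not given in the sources used here. Barcodes were kept as stated in the report, and 62 of the kept cells that Scrublet (scanpy 1.11.5) called as doublets stayed in and were left out as an alternative. CPM were taken over all UMIs of a set of cells, with exact Poisson intervals and exact intervals of ratios. With 1 library there is no test, and a ratio of 1.5 or its inverse counted as higher or lower. For shares and correlations each cell was thinned to 10000 UMIs (seed 1), which left out 546 shallower cells. Beside the 10, up to 4 further p53 targets past the fold in each direction per gate and the 5 genes of highest r with the summed genes, or with CDKN1A in the CD34/GATA2 gate, were named by rule. Other genes were named after their values were seen. Genes and lists were chosen with earlier results of these data known. Ratios and correlations were tested on simulated data. Python 3.11.15, numpy 2.4.6, scipy 1.17.1 and pandas 2.3.3 were used. Intervals cover counting error only. Alternatives were other cell limits, gate thresholds, folds, thinning depths, Spearman's rho and leaving out each hashtag. The minimum of 1 UMI of CD34 and of GATA2 was not varied. In the annotation used for the motif windows, MDM2 and PHLDA3 share exon bases with another gene on the same strand. Whether this affects their counts was not tested. The values of 1 regulator of the pathway are not reported here.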

Additional observations from a re-analysis of the deposited data

How the results depend on the processing

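The 34 single values gave 404 comparisons of a value with an alternative setting, of which 359 were labeled as the same, 43 moved and 2 reversed. A fold of 2 cannot change a ratio, so that it does not test single values that are ratios. Comparisons at this fold are still counted among the 359. Both reversals came with a mitochondrial limit of 15%. The ratio between mitochondrial bins then became 0.52 for CDKN1A in CD34/GATA2 cells and 1.34 for BBC3 in C1Q cells. With a fold of 2, the genes past the fold were 2 instead of 4 in the CD34/GATA2 gate, 2 instead of 4 in C1Q, 5 instead of 9 in ELANE, 1 instead of 2 in globin, 2 instead of 4 between the mitochondrial bins of C1Q cells, 0 instead of 2 between hashtags in all kept cells and 1 instead of 2 between hashtags in CD34/GATA2 cells. Without a limit on UMIs or genes, 2 genes were past it in C1Q and 1 between hashtags. Against the median of the other 5 gates there were 4 in globin. Between mitochondrial bins there were 2 in C1Q cells with gate thresholds at 0.5 of their value, and 1 in C1Q cells and 1 in cells without a gate with a limit of 15%. Gates weighted alike in each hashtag left 0. The count of 9 in the collagen gate was 8 to 10 under the alternatives run for it.

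The median r of the 45 pairs was 0.025 in CD34/GATA2 and 0.034 in cells without a gate when thinned to 5000 UMIs, 0.056 in C1Q and 0.095 in globin without thinning, and 0.045 in cells without a gate with Spearman's rho. Leaving out 1 hashtag gave 0.013 (without 0253) to 0.047 (without 0252) in C1Q, 0.043 (without 0253) to 0.088 (without 0252) in globin and 0.043 (without 0254) to 0.069 (without 0252) in cells without a gate. The causes were not tested. No paired analysis was possible because each coating was 1 pool in 1 library. Depth limits FAS, with 125 UMIs in all, and the ELANE, PF4/PPBP and collagen gates of 85, 15 and 91 cells.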
